A study of Mus musculus with 2 samples.

Results

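The genes described here are 5 interferon-induced genes whose products sit in cellular membranes: Ifi27l2a, Ifitm3, Ifitm2, Bst2 and Ifi27. They were chosen by name, after earlier results of these data were known, from 31053 genes listed, and all 5 were found. Their levels, detection and co-expression in these libraries chose them, so that their values are a description and carry no test. The cells were microglia, the macrophages that reside in brain tissue, taken from the hypothalamus of young wild-type mice, whose age in weeks is not given in the sources used here. All mice had received plasma protein labelled with a dye, and several mice were pooled. The cells were sorted by fluorescence 20 hours after the injection into microglia that carried the dye (plasma-positive) and microglia that did not (plasma-negative). Each sort gave 1 droplet library, and whether the same mice gave both sorts was not stated. No library came from mice without an injection.

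With 1 library per group, no difference between the sorts has a replicate check. A difference between mice, sorts or library preparations and a difference between microglia with and without plasma protein cannot be told apart. All intervals are 95% intervals and cover counting error only. The plasma-negative library kept 9860 cells and 34534518 UMIs after the filters, and the plasma-positive library kept 10362 and 41984977. A UMI, or unique molecular identifier, marks 1 captured RNA molecule. Median depth was 3270.5 and 3753 UMIs per cell. At least 4 of 11 microglia markers were held by 99.9% of the cells of each library, so that the labelled cell type was borne out by its markers.

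Interferons are secreted signals that bind receptors at the cell surface, act through JAK kinases and transcription factors, and switch on a broad set of antiviral genes. IFITM proteins lie in the plasma membrane and endosomes, where they hinder the fusion of enveloped viruses with the cell. Bst2 encodes tetherin, which holds budding virus particles at the cell surface. Ifi27l2a and Ifi27 encode small hydrophobic proteins of the ISG12 family. Microglia are known to express such genes in response to type I interferon.

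Many interferon-induced genes carry a DNA element called the interferon-stimulated response element, whose core repeats the letters GAAA. The promoter windows of 3 of the 5 genes, Ifitm3, Ifitm2 and Bst2, were found in the RefSeq-based table (GRCm38.p6) and each runs from 250 bases before to 50 after the RefSeq start. They are shown because Ifitm3 and Bst2 were detected together in the same cells, as described below. Each sequence runs 5′ to 3′ on the minus strand, and capitals mark a core motif, GAAA then any 2 bases then GAAA, with the letters CT after it where that longer form was present. Both forms were searched on both strands. For Ifitm2 and Bst2 the bases before the start are printed, and for Ifitm3 a stretch of 30 bases just after the start, which holds its matches.
Ifitm3, chr7:141010714-141010743: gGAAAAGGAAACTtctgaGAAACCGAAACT
Ifitm2, chr7:140955962-140956211: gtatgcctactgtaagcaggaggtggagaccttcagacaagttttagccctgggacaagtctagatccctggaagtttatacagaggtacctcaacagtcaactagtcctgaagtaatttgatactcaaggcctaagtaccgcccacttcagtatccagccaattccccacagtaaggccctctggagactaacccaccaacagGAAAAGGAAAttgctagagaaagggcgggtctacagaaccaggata
Bst2, chr8:71537473-71537722: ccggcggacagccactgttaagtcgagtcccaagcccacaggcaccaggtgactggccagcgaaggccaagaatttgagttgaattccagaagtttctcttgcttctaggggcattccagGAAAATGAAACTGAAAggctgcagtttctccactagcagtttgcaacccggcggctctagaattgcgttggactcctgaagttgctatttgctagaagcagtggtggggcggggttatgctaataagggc
Ifitm3 had 2 matches to the core motif, both of which extended to the longer form. Bst2 had 2 matches that overlap each other, and 1 of them extended to the longer form. Ifitm2 had 1 match and 0 of the longer form. The windows of the family genes Ifitm1, Ifitm6 and Ifitm10 had 0 matches to the core motif. A further motif, TTC then any 3 bases then GAA, was searched too. It had 1 match each in Ifitm3, Bst2 and Ifitm6, and 8.30% of all windows held it. Of all 32851 promoter windows of the table, 3.44% held the core motif and 0.271% held the longer form. These matches describe letters and not bound sites, and their part in the joint detection was not tested.

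By the GENCODE M21 annotation of GRCm38, all 5 genes are protein-coding. Ifitm2 (chromosome 7, 140954837 to 140955987) and Ifitm3 (chromosome 7, 141009586 to 141010770) lie on the minus strand with 53598 bases between them. Ifi27 (chromosome 12, 103434211 to 103440239) lies on the plus strand, and Ifi27l2a (chromosome 12, 103442167 to 103443680) on the minus strand 1927 bases further on. Bst2 (chromosome 8, 71534255 to 71537456) is on the minus strand too. The transcripts of Ifitm2 and Ifitm3 share an identical run of 69 bases, and Ifitm2 overlaps Gm45717 on the same strand, so that counts of Ifitm2 are uncertain. The longest run shared by Ifi27 and Ifi27l2a transcripts was 11 bases, and in GENCODE M21 neither gene overlaps another gene. The RefSeq interval of Ifi27l2a, however, covers that of Ifi27, and the use of strand in counting was not stated.

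The first comparison set the level of each gene in plasma-positive beside plasma-negative microglia. Levels are CPM, UMIs per 1000000 UMIs of the library, summed over all cells, and each UMI stands for 1 molecule whatever the length of its gene. Ifi27l2a and Ifitm3 were several times higher in the plasma-positive library, Bst2 was slightly higher, Ifi27 was nearly level, and Ifitm2 was rare in both. Ifi27l2a was at 19.5 CPM (18.0 to 20.99) in plasma-negative and 90.9 CPM (88.0 to 93.8) in plasma-positive microglia, from 672 and 3816 UMIs. This is a ratio of 4.67 (4.30 to 5.08), and the intervals of the libraries lay far apart. The level of Ifitm3 was 13.1 CPM (11.9 to 14.4) in plasma-negative and 58.1 CPM (55.8 to 60.4) in plasma-positive microglia, a ratio of 4.44 (4.01 to 4.92). The intervals of the ratios of Ifi27l2a and Ifitm3 overlapped each other, while their genes lie on different chromosomes.

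Bst2 had 176 CPM (172 to 180) in the plasma-negative library beside 219.5 CPM (215 to 224) in the plasma-positive one, a ratio of 1.25 (1.21 to 1.29). For Ifi27 the levels were 86.9 CPM (83.8 to 90.1) and 91.9 CPM (89.0 to 94.8), which gives a ratio of 1.06 (1.01 to 1.11). The intervals of the 2 libraries overlapped for Ifi27 and did not for Bst2. Ifitm2 had 50 and 136 UMIs, or 1.45 CPM (1.07 to 1.91) and 3.24 CPM (2.72 to 3.83), a ratio of 2.24 (1.61 to 3.16). In the plasma-negative library the order from high to low was Bst2, Ifi27, Ifi27l2a, Ifitm3 and Ifitm2, with no overlap of intervals between neighbours. In the plasma-positive library Ifi27l2a stood beside Ifi27, their intervals overlapping, and the other neighbours lay apart.

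**Figure D1:**
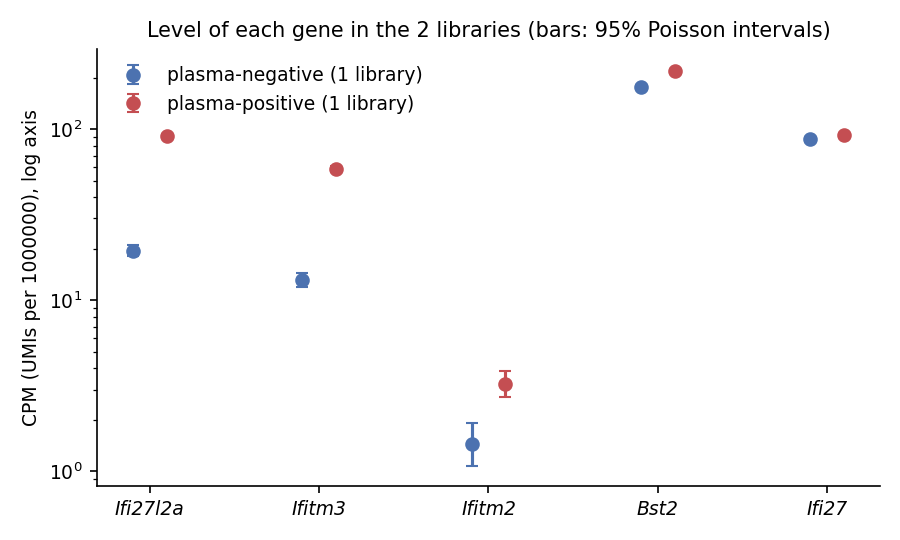
CPM of the 5 genes (log axis) in the plasma-negative and plasma-positive library, 1 point per library with its 95% Poisson interval. The libraries stand far apart for Ifi27l2a (19.5 and 90.9 CPM) and Ifitm3 (13.1 and 58.1 CPM) and almost coincide for Ifi27 (86.9 and 91.9 CPM).

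Genes with at least 10 CPM in a library, 8355 in all, were compared by a rule of size, and 4 of the 5 genes reached that level, Ifitm2 falling below it. Of the 4, Ifi27l2a and Ifitm3 had plasma-positive levels of at least 2-fold the plasma-negative ones, as had 0.227% of all genes compared. Both also passed 1.5-fold, as had 0.323%, and all 4 were higher by any amount, as were 35.7%. Among the 3540 genes with at least 50 CPM, which include the same 4, the shares were 0.113%, 0.141% and 39%. Since the levels chose the genes, nothing is read from these counts. Ifi27l2a had the 5th and Ifitm3 the 6th highest ratio of the 8355 genes, Bst2 the 79th and Ifi27 the 1219th. The median log2 ratio of all genes compared was -0.04, with quartiles of -0.11 and 0.04. The log2 ratio was 2.22 (2.11 to 2.34) for Ifi27l2a, 2.15 (2.004 to 2.30) for Ifitm3, 1.16 (0.68 to 1.66) for Ifitm2, 0.32 (0.27 to 0.37) for Bst2 and 0.08 (0.01 to 0.15) for Ifi27.

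Both families are larger than the genes above. Of the other Ifitm genes, Ifitm10, a more distant member, was at 29.4 and 26.3 CPM, a ratio of 0.895 (0.822 to 0.976). Ifitm1 had 4 plasma-negative and 9 plasma-positive UMIs, Ifitm6 had 3 and 7, Ifitm7 had 6 and 6, and Ifitm5 had 0 in both libraries. The third gene of the Ifi27 family, Ifi27l2b, had 5 and 2 UMIs. The Ifitm gene with the most UMIs was thus Ifitm10 in the plasma-negative and Ifitm3 in the plasma-positive library, and Ifi27 and Ifi27l2a held nearly all UMIs of their family.

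The second comparison asked how the UMIs were spread over cells. Ifi27l2a and Ifitm3 were found in few cells, and a small number of cells held a large part of their UMIs. Ifi27l2a was detected in 367 of 9860 plasma-negative cells (3.72%, 3.36% to 4.11%) and in 1148 of 10362 plasma-positive cells (11.1%, 10.5% to 11.7%). The 1% of cells richest in it held 55.8% of the UMIs of Ifi27l2a in the plasma-negative library and 39.9% in the plasma-positive one. That 1% was 99 cells beside 367 with the gene, and 104 beside 1148. The shares thus depend on detection and do not rank the libraries by how concentrated the gene was. The highest count in a single cell was 19 UMIs in the plasma-negative and 88 UMIs in the plasma-positive library. At least 10 UMIs of Ifi27l2a were held by 4 plasma-negative and 69 plasma-positive cells.

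Ifitm3 was spread in a like way. It was detected in 274 plasma-negative cells (2.78%, 2.46% to 3.12%) and 788 plasma-positive cells (7.60%, 7.10% to 8.13%). The richest 1% of cells held 61.3% and 51.6% of its UMIs, with the same limit. At least 10 UMIs of Ifitm3 were held by 3 and 54 cells. Of these rich cells, 1 plasma-negative and 24 plasma-positive cells had at least 10 UMIs of both Ifi27l2a and Ifitm3.

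Bst2 and Ifi27 were spread widely instead. Bst2, the most abundant of the 5, was detected in 40.8% (39.9% to 41.8%) of cells in the plasma-negative library and 47.7% (46.8% to 48.7%) in the plasma-positive one, and the richest 1% of cells held 9.001% and 13.1% of its UMIs. Cells with at least 10 UMIs of Bst2 nevertheless numbered 6 in the plasma-negative and 57 in the plasma-positive library. Ifi27 was detected in 23.2% (22.3% to 24.0%) and 27.1% (26.3% to 28.0%) of cells, its highest count was 5 and 7 UMIs, and 0 cells held 10. Ifitm2 was detected in 46 and 107 cells, and 1 plasma-positive cell held 10 of its UMIs.

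**Figure D2:**
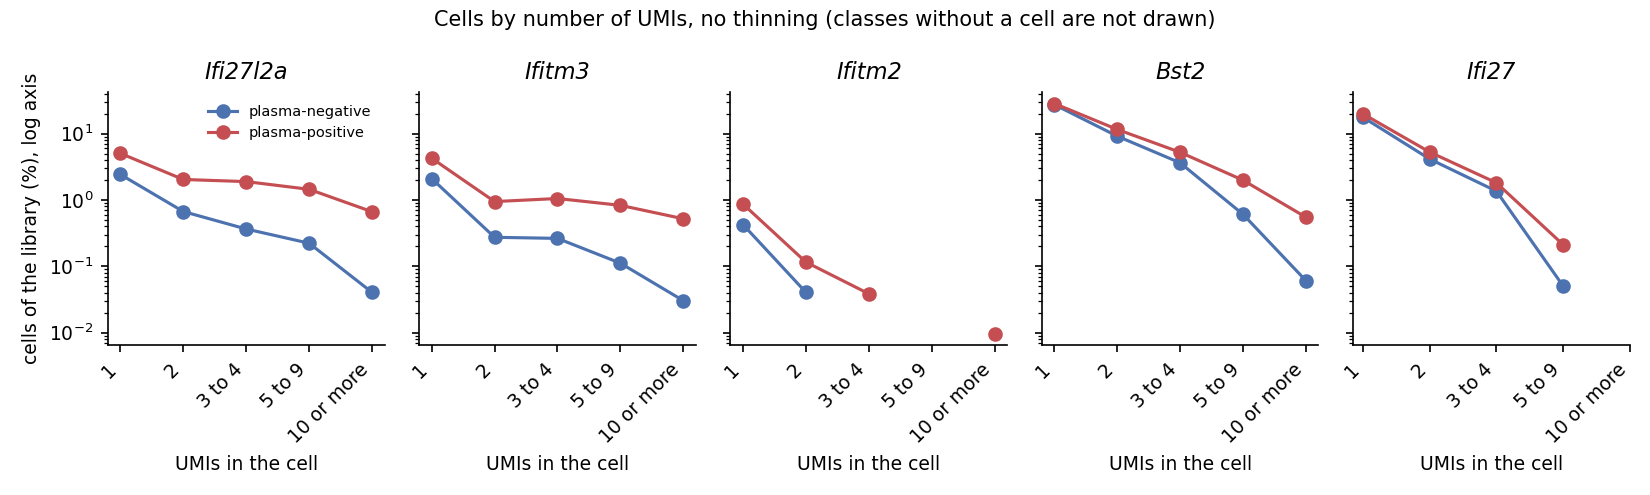
Percent of the cells of each library (log axis) that held 1, 2, 3 to 4, 5 to 9, and 10 or more UMIs of each gene, without thinning. The gap between the libraries widens toward high counts for Ifi27l2a, Ifitm3 and Bst2, with 69, 54 and 57 plasma-positive against 4, 3 and 6 plasma-negative cells at 10 or more UMIs, while the lines of Ifi27 stay close up to 3 to 4 UMIs.

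The plasma-positive cells were deeper, and detection depends on depth, so each cell was thinned to 1000 UMIs drawn at random. This left out 796 plasma-negative and 603 plasma-positive cells with fewer UMIs and kept 9064 and 9759. The share of cells with Ifi27l2a was then 1.48% (1.24% to 1.75%) in the plasma-negative and 5.14% (4.71% to 5.60%) in the plasma-positive library. Ifitm3 was detected in 1.03% (0.829% to 1.26%) and 3.42% (3.07% to 3.80%), and Ifitm2 in 0.177% (0.101% to 0.287%) and 0.379% (0.267% to 0.522%). For Bst2 the shares were 15.99% (15.2% to 16.8%) and 18.0% (17.3% to 18.8%), and for Ifi27 they were 8.13% (7.58% to 8.71%) and 8.71% (8.16% to 9.29%). At equal depth the libraries' intervals did not overlap for Ifi27l2a, Ifitm3 or Bst2, and they overlapped for Ifi27 and Ifitm2. Nearly all cells were microglia, and the share of cells with a UMI that comes from free RNA was not measured, for want of a cell type lacking these genes.

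The ratio of the variance to the mean over thinned cells, which is near 1 for counts scattered at random, described the same difference between the genes. Its median over the 8355 genes was 1.03 in each library. Ifi27l2a was at 1.51 in the plasma-negative and 2.73 in the plasma-positive library, and Ifitm3 at 1.56 and 2.34. In the plasma-positive library only 12 and 16 genes had a higher value than Ifi27l2a and Ifitm3. Bst2 was at 1.07 and 1.31, and Ifi27 at 1.07 and 1.03, close to the median. The intervals of levels and of their ratios take UMIs as scattered at random over cells. Those of Ifi27l2a and Ifitm3, and to a lesser degree those of Bst2, are therefore too narrow. Overlap or its absence should be read with this limit.

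The third comparison asked which of the genes were found in the same cells. Ifi27l2a, Ifitm3 and Bst2 were detected together in both libraries, and the share of cells with Ifi27 was, within its interval, the same with and without Ifitm3 or Bst2. Among the 502 plasma-positive thinned cells with Ifi27l2a, 108 (21.5%, 18.0% to 25.4%) also held Ifitm3, against 2.44% of cells without Ifi27l2a. In the plasma-negative library 14 of 134 such cells (10.4%, 5.83% to 16.9%) held Ifitm3, against 0.885%. The rarer gene of the pair was thus found 8.81 times as often in plasma-positive and 11.8 times as often in plasma-negative cells with Ifi27l2a as in cells without it.

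Bst2 showed the same pattern on a higher base. It was detected in 53.9% (48.4% to 59.3%) of plasma-positive cells with Ifitm3 against 16.8% of cells without, and in 44.1% (33.8% to 54.8%) against 15.7% in the plasma-negative library. In cells with Ifi27l2a the share with Bst2 was 38.6% (34.4% to 43.1%) against 16.9%, and 29.9% (22.3% to 38.4%) against 15.8%. In each library the point share of Bst2 was higher in cells with Ifitm3 than in cells with Ifi27l2a, and 108 and 14 cells belong to both sets. Ifi27l2a, Ifitm3 and Bst2 were found together in 8 plasma-negative cells (0.0883%) and 78 plasma-positive cells (0.799%).

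Ifi27 was also set beside Ifi27l2a, which carries nearly the same name. In the plasma-positive library 8.96% (6.61% to 11.8%) of cells with Ifi27l2a held Ifi27, against 8.70% of cells without. In the plasma-negative library the shares were 14.9% (9.36% to 22.1%, 20 cells) and 8.03%. The size of the former rested in part on the random draw, since another draw of UMIs gave 11.4%, against 8.20% of all plasma-negative cells. With cells thinned to 2000 UMIs it was 25.3%, against 15.3% of all plasma-negative cells. In the plasma-positive library the shares at 2000 UMIs were 18.8% and 16.1%. In plasma-positive cells with and without Ifitm3 the shares of Ifi27 were 8.38% (5.64% to 11.9%) and 8.72%, and with and without Bst2 they were 8.92% (7.63% to 10.35%) and 8.66%. Ifitm2 was too rare to be read in the plasma-negative library, where it shared 1 cell each with Ifi27l2a and Ifitm3. In the plasma-positive library 9 of its 37 cells (24.3%, 11.8% to 41.2%) held Ifitm3, against 3.34% of cells without Ifitm2. The transcripts of Ifitm2 and Ifitm3 share an identical run of 69 bases, and the part of this run in the overlap was not tested.

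**Figure D3:**
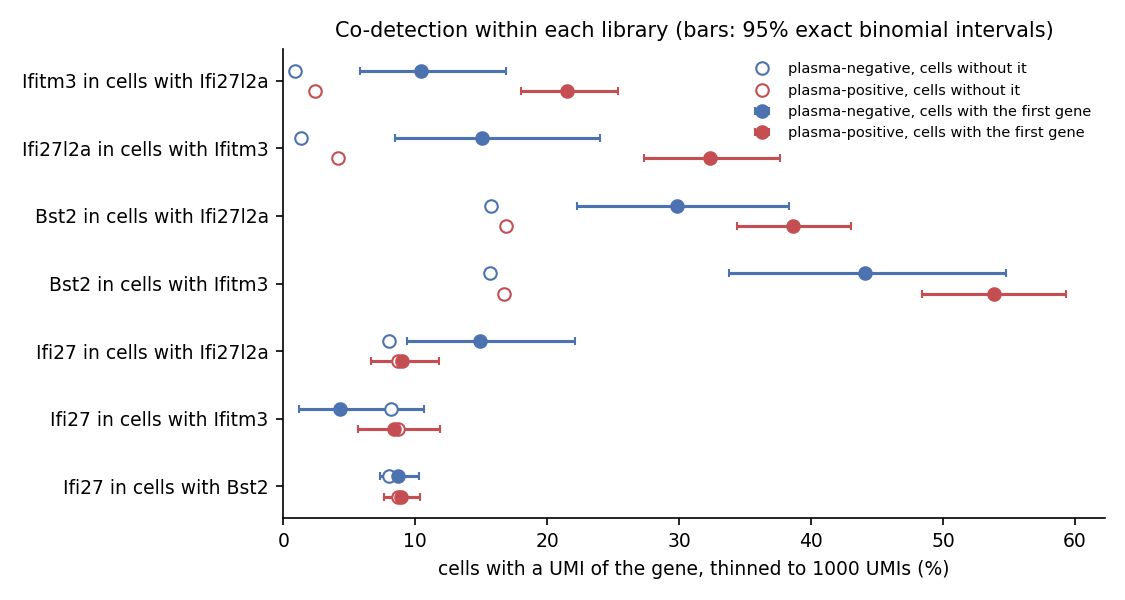
Percent of thinned cells with a UMI of the named gene, in cells with the first gene (filled, 95% exact binomial interval) and without it (open), for each library. Filled points lie far to the right of open ones for pairs of Ifi27l2a, Ifitm3 and Bst2 (21.5% against 2.44% for Ifitm3 in plasma-positive cells with Ifi27l2a), while for Ifi27 they almost coincide in the plasma-positive library.

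No thinned cell held all 5 genes. In 9 plasma-positive and 0 plasma-negative cells 4 were found. A count of 3 genes was found in 94 plasma-positive and 16 plasma-negative cells, and a count of 2 in 406 and 203 cells. In 6870 plasma-negative (75.8%) and 6897 plasma-positive cells (70.7%) none was detected at this depth.

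Without thinning, the 69 plasma-positive cells with at least 10 UMIs of Ifi27l2a had a median of 5610 UMIs, against 3697 in cells with none of it. Of these 69 cells, 55 held Ifitm3, 64 held Bst2, 57 held Apoe, the gene of the lipid carrier apolipoprotein E, and 58 held Ccl12, a chemokine gene. In the cells without Ifi27l2a the shares were 4.28% for Ifitm3, 44.9% for Bst2, 32.2% for Apoe and 36.8% for Ccl12, beside 79.7%, 92.8%, 82.6% and 84.1% of the 69. All 54 plasma-positive cells with at least 10 UMIs of Ifitm3 held Bst2, 53 held Ccl12, 48 held Ifi27l2a and 46 held Apoe. In the cells without Ifitm3, which had a median of 3712 UMIs against 6081.5 in the 54, the shares were 45.4% for Bst2, 37.2% for Ccl12, 7.88% for Ifi27l2a and 33.3% for Apoe. Ifi27 was in 28 of the 69 and 15 of the 54, or 40.6% and 27.8%, beside 26.1% and 26.8% of the cells without Ifi27l2a and without Ifitm3.

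The genes most like each of the 5 were found by Pearson's correlation across thinned cells of log-transformed counts, averaged over both libraries, among 8354 other genes (8355 for Ifitm2). The points are 9064 and 9759 cells that share their library, and the median over all genes lay between -0.00341 and -0.000944, so the values are a description. For Ifitm3 they were Isg15 (r of 0.15 in plasma-negative and 0.35 in plasma-positive cells), Ifit3 (0.21 and 0.29), Ifi27l2a (0.16 and 0.32), Irf7 (0.20 and 0.22) and Ifit2 (0.19 and 0.22). Isg15 encodes a ubiquitin-like protein, Ifit2 and Ifit3 encode antiviral RNA-binding family proteins, and Irf7 encodes a transcription factor of interferon genes. For Bst2 they were Ifitm3, Ifit3, Ifi27l2a, Isg15 and Ifit2, from 0.13 and 0.28 for Ifitm3 to 0.09 and 0.13 for Ifit2.

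For Ifi27l2a the list differed, with Ifitm3 first, then Apoe (0.01 and 0.25), Bst2 (0.06 and 0.20), Rtp4 (0.09 and 0.16), a receptor-transporting protein gene induced by interferon, and Ccl12 (0.04 and 0.21). Its correlation with Apoe was found in the plasma-positive library and was near 0 in the plasma-negative one. In the latter, 92.1% of thinned cells held no Apoe UMI, against 81.3% in the former. Plasma-negative cells with 3 or more Apoe UMIs nevertheless had Ifi27l2a at 50.6 CPM (21.9 to 99.8, 8 UMIs). Those with 1 had 8.93 CPM (4 UMIs), and those with 0 had 18.1 CPM (15.3 to 21.2). In plasma-positive cells the levels were 447, 85.1 and 54.1 CPM with 3 or more, 1 and 0. For Ifi27 the highest mean value was 0.03, with Tubb5, followed by Tmsb4x, Cst3, Rps27a and Itm2b, and for Ifitm2 it was 0.06, with Apoe, followed by Anxa5, Ifitm3, Ifi207 and Map2k3. Values as low as these in sparse counts are no finding.

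The fourth comparison asked how the levels of the genes followed the wider antiviral response of a cell. Thinned cells were ranged by their UMIs of 16 other interferon-induced genes: Isg15, Ifit1, Ifit2, Ifit3, Ifit3b, Oasl1, Oasl2, Oas1a, Oas2, Rsad2, Mx1, Rtp4, Zbp1, Cmpk2, Usp18 and Irf7. These were picked for their low base level after values were seen, and 0 of 1000 UMIs does not mean that a cell lacked the response. Isg15, Ifit2, Ifit3 and Irf7 are also among the genes most correlated with Ifitm3 above. The first 3 of them are among those of Bst2, and only Rtp4 is among those of Ifi27l2a. The steps below, and the proportions of Ifi27l2a to Ifitm3, thus in part restate these correlations in the same cells and are no separate support. No antiviral UMI was found in 8681 plasma-negative and 8977 plasma-positive cells, 1 in 300 and 489 cells, 2 in 43 and 120 cells, and 3 or more in 40 and 173 cells.

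Ifitm3 was higher with each step of the range. In plasma-positive cells it was at 21.1 CPM (18.2 to 24.3) with 0 antiviral UMIs, 198 CPM (161 to 242) with 1, 392 CPM (288 to 521) with 2 and 1087 CPM (937 to 1254) with 3 or more. In plasma-negative cells the levels were 8.29, 26.7, 349 and 575 CPM. Cells with 3 or more antiviral UMIs held 36.1% of all Ifitm3 UMIs of the plasma-positive and 19.5% of the plasma-negative library. The ratio between the libraries within a range was 2.54 (1.93 to 3.38) at 0, 7.44 (3.63 to 17.7) at 1, 1.12 (0.617 to 2.16) at 2 and 1.89 (1.22 to 3.05) at 3 or more.

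Ifi27l2a was also higher with each step, but a larger part of it lay outside the antiviral ranges. Its plasma-positive levels were 54.7 CPM (49.96 to 59.8) with 0 antiviral UMIs, 309 CPM (262 to 362) with 1, 475 CPM (360 to 615) with 2 and 844 CPM (713 to 992) with 3 or more. Its plasma-negative levels were 14.5, 66.7, 209 and 325 CPM, below the plasma-positive ones at each step. In cells with 0 antiviral UMIs lay 58.1% of its plasma-positive UMIs, where the share of Ifitm3 was 36.3%. Within those cells Ifi27l2a was 3.77 times (3.09 to 4.62) as high in the plasma-positive as in the plasma-negative library.

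Bst2 was at 171 CPM in plasma-negative and 183 CPM in plasma-positive cells with 0 antiviral UMIs, a ratio of 1.07 (1.00 to 1.15). In cells with 3 or more the levels were 1250 CPM (928 to 1648) and 1202 CPM (1044 to 1377), a ratio of 0.962 (0.703 to 1.34). With 1 antiviral UMI the ratio was 1.69 (1.29 to 2.24), from 247 and 417 CPM, and with 2 it was 1.45 (0.881 to 2.5), from 465 and 675 CPM. The ratio of Bst2 was thus near 1 at both ends of the range. Its interval lay above 1 with 1 antiviral UMI, but overlapped that with 3 or more. With 2 antiviral UMIs the interval included 1. Ifi27 showed no such steps, with 91.2, 125, 91.7 and 63.6 CPM in the plasma-positive ranges and intervals that all overlapped.

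**Figure D4:**
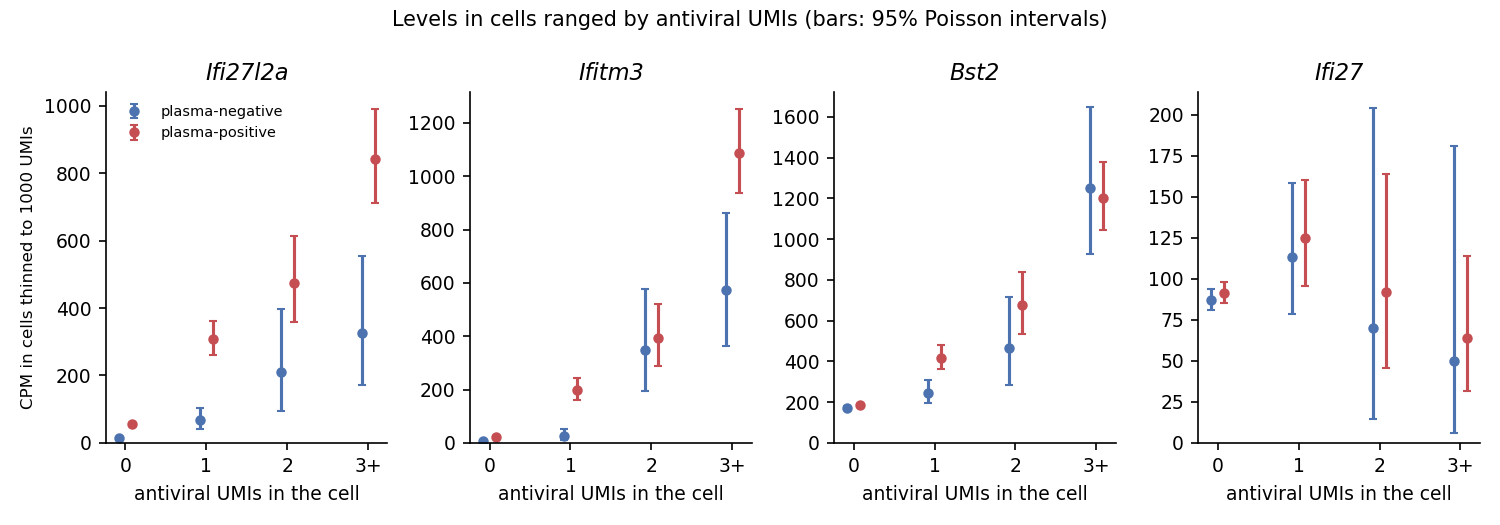
CPM of Ifi27l2a, Ifitm3, Bst2 and Ifi27 in thinned cells with 0, 1, 2 and 3 or more antiviral UMIs, for each library, with 95% Poisson intervals (axes differ between panels and start at 0). Levels of the first 3 genes are higher with each step in plasma-positive cells, up to 844, 1087 and 1202 CPM, and those of Ifi27 stay between 63.6 and 125 CPM.

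Apoe was at 171 CPM in the plasma-negative and 1190 CPM in the plasma-positive library. Cells were then ranged by Apoe and antiviral UMIs together, and the proportion of Ifi27l2a to Ifitm3 differed with the antiviral UMIs more than with Apoe. In plasma-positive cells with at least 2 Apoe UMIs and 0 antiviral UMIs (734 cells) Ifi27l2a was at 250.7 CPM (216 to 290) and Ifitm3 at 85.8 CPM (66.0 to 110). In cells with 0 Apoe UMIs and at least 2 antiviral UMIs (193 cells) Ifi27l2a was at 518 CPM (422 to 630) and Ifitm3 at 653 CPM (544 to 777). The number of Ifi27l2a UMIs per Ifitm3 UMI was thus 2.92 (2.18 to 3.95) in the former and 0.794 (0.604 to 1.04) in the latter. In cells with neither it was 2.60 (2.05 to 3.31), close to the value with Apoe alone. Ranged by Apoe only, it was 1.53, 1.57, 2.125 and 1.72 in plasma-positive cells with 0, 1, 2 and 3 or more Apoe UMIs. Bst2 was at 243 CPM in the former and 927 CPM in the latter.

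The plasma-negative library held few UMIs of these genes in cells with Apoe alone. In its 250 cells with at least 2 Apoe UMIs and 0 antiviral UMIs, Ifi27l2a was at 28.0 CPM (7 UMIs) and Ifitm3 at 32.0 CPM (8 UMIs), a proportion of 0.875 (0.270 to 2.76) that gives no order. The libraries differed there by a ratio of 8.95 (4.26 to 22.6) for Ifi27l2a and 2.68 (1.28 to 6.48) for Ifitm3. In its 76 cells with antiviral UMIs alone they were at 211 and 434 CPM, and the ratios between the libraries were 2.46 (1.44 to 4.47) and 1.504 (1.02 to 2.28). Cells with at least 2 UMIs of each kind numbered 75 in the plasma-positive library, where Ifi27l2a was at 1173 CPM, Ifitm3 at 1200 CPM and Bst2 at 1120 CPM, and 4 in the plasma-negative library, too few to compare. In cells with neither, Ifi27l2a was at 14.6 and 34.9 CPM, a ratio of 2.38 (1.91 to 2.99), and Ifitm3 at 7.63 and 13.4 CPM, a ratio of 1.76 (1.27 to 2.46).

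**Figure D5:**
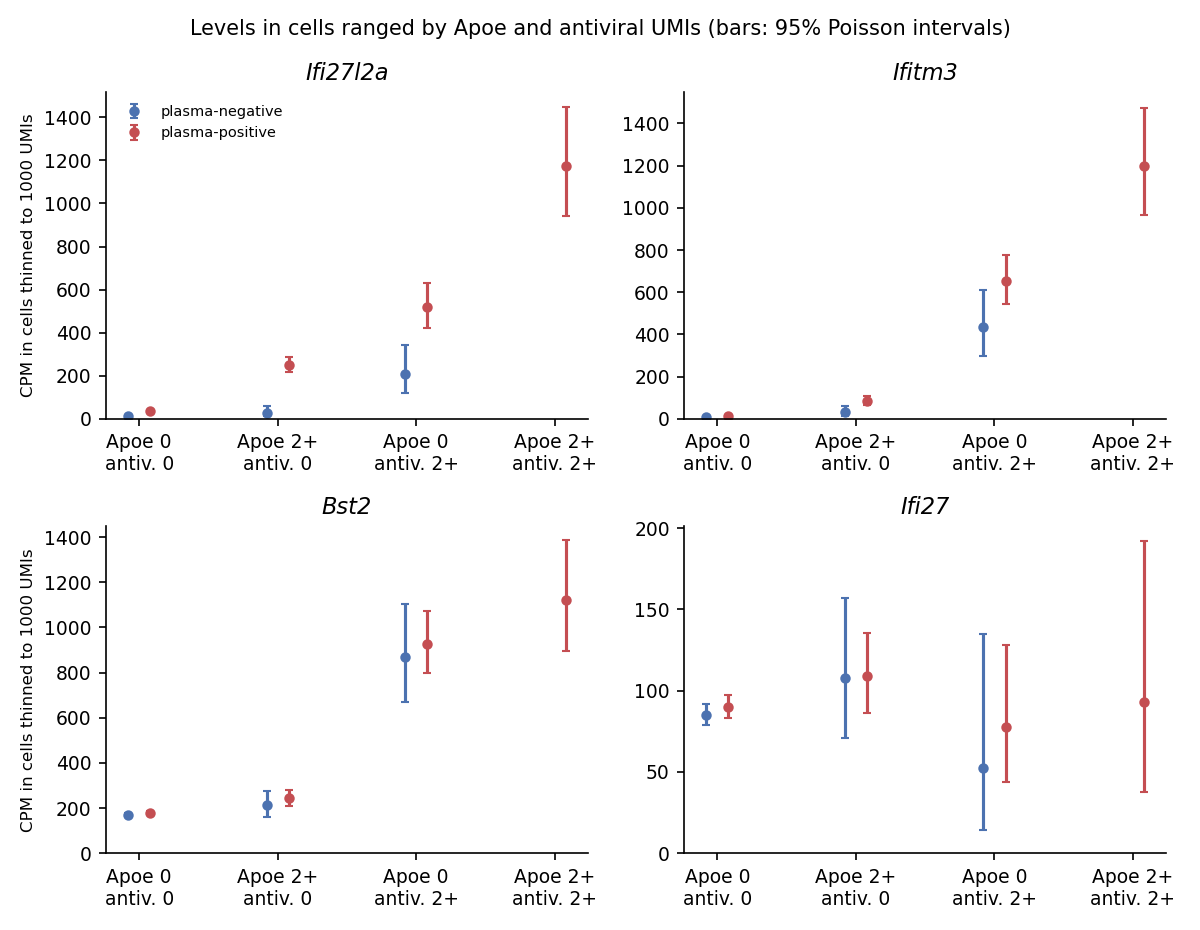
CPM of Ifi27l2a, Ifitm3, Bst2 and Ifi27 in thinned cells ranged by Apoe UMIs (0, or 2 and more) and antiviral UMIs (0, or 2 and more), for each library, with 95% Poisson intervals (axes differ between panels). The plasma-negative range of 4 cells is not drawn. In plasma-positive cells with Apoe alone Ifi27l2a (250.7 CPM) stands above Ifitm3 (85.8 CPM), as it does at lower levels in cells with neither (34.9 and 13.4 CPM). Ifi27 lies between 77.7 and 109 CPM in the plasma-positive ranges and between 52.6 and 108 CPM in the plasma-negative ranges drawn.

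The ends of the Ccl12 ranges gave a like picture in plasma-positive cells. In plasma-positive cells with 3 or more Ccl12 UMIs (302 cells) Ifi27l2a was at 603 CPM and Ifitm3 at 613 CPM, against 59.8 and 24.3 CPM in cells with 0. Ifi27 was at 86.1 and 91.4 CPM in the same ranges. With 0, 1, 2 and 3 or more Ccl12 UMIs the plasma-positive proportion of Ifi27l2a to Ifitm3 was 2.46, 1.13, 1.67 and 0.984. In the same plasma-negative ranges Ifi27l2a was at 17.2, 19.2, 30.5 and 129 CPM, and Ifitm3 at 9.44, 25.9, 18.3 and 243. The last of these rest on 9 and 17 UMIs in 70 cells.

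The rest of the pathway was set beside these genes by lists of its parts. Of 10 interferon genes, Ifnb1 alone had a UMI, 10 in the plasma-negative and 1 in the plasma-positive library, and the other 9 were not detected, which allows up to 3 counts each, or 0.0869 CPM in the plasma-negative and 0.0715 CPM in the plasma-positive library. Among receptors and signal transduction, 14 of 17 genes reached 10 CPM, of which 1 was higher and 0 were lower by 2-fold or more. Of all 8355 genes compared, 0.227% were higher and 0% lower by 2-fold or more. The median log2 ratio of the 14 was -0.00 beside -0.04 for all genes. All these lists were chosen with earlier results of these data known, so nothing is read from their counts. The receptor genes Ifnar1 (74.7 and 72.5 CPM) and Ifnar2 (316 and 311 CPM) were at about the same level in both libraries. Irf7 had the highest log2 ratio, 1.40 (1.12 to 1.68). Stat2 was at 0.39, and the lowest were Irf3 at -0.14 and Jak2 at -0.11.

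Among 32 antiviral interferon-induced genes, 31 were in the files and 16 reached 10 CPM. Of the 16, 4 were higher and 0 were lower by 2-fold or more, beside 0.227% and 0% of all genes compared. The median log2 ratio of the 16 was 0.27. The highest were Oasl2 (3.301 and 12.9 CPM, log2 ratio 1.97), Isg15 (12.5 and 31.0 CPM, 1.31) and Ifit3 (12.4 and 29.4 CPM, 1.25), and the lowest were Apobec3 at -0.11 and Samhd1 at 0.03. The ratios of Ifi27l2a and Ifitm3, 4.67 and 4.44, stood above that of Oasl2, 3.91 (3.19 to 4.83), but the intervals overlapped, and above that of Isg15, 2.47 (2.22 to 2.76), with no overlap. Among 21 other interferon-induced membrane or secreted genes, 17 reached 10 CPM. Of these, 3 were higher and 0 were lower by 2-fold or more, beside the same 0.227% and 0% of all genes. Their median was 0.20. The highest were Ccl5 at 3.23, Ccl12 at 1.13 and Fgl2 at 1.07, and the lowest H2-T23 at -0.09 and Tap2 at -0.08.

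Cells of other types known to express Ifitm or Bst2 genes were looked for by 13 marker lists. Border-associated macrophage markers summed to 3.62 CPM in the plasma-negative and 6.22 CPM in the plasma-positive library, with 4 and 1 of 8 markers at 0 and Lyve1 at 0 in both. Endothelial markers summed to 28.0 and 25.3 CPM, with 2 and 1 of 7 at 0, and monocyte markers to 3.82 and 3.72 CPM, with 5 and 4 of 8 at 0, Ly6c2 among them. The sums of the other 10 lists ran from 0.0290 CPM for erythroid cells to 48.1 CPM for B cells in the plasma-negative library, and from 0.0476 to 48.7 CPM for the same lists in the plasma-positive library. In thinned plasma-positive cells with Ifi27l2a the border-associated macrophage markers summed to 31.9 CPM (16 UMIs), against 4.75 CPM in cells without, and monocyte markers to 7.97 CPM (4 UMIs) against 3.13 CPM. In plasma-positive cells with Ifitm3 each of these lists summed to 18.0 CPM (6 UMIs), against 5.73 CPM for border-associated macrophage and 2.86 CPM for monocyte markers in cells without. In plasma-negative cells monocyte markers summed to 21.5 CPM (2 UMIs) with Ifitm3 and 4.35 CPM without. Microglia markers summed to 35104 CPM in plasma-positive cells with Ifi27l2a, against 39947 CPM in cells without. The part of these markers in the results was not tested. At least 3 markers of another type were held by 5 plasma-negative and 9 plasma-positive cells. Without them the log2 ratio was 2.23 for Ifi27l2a and 2.14 for Ifitm3, against 2.22 and 2.15 with them.

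Depth and mitochondrial share were set beside the ratios too. The median mitochondrial share of UMIs was 1.08% in the plasma-negative and 1.27% in the plasma-positive library, and in thinned plasma-positive cells it was 1.51% with Ifi27l2a and 1.24% without. When the cells of both libraries were ranked by mitochondrial share and divided into 10 groups of equal size, the ratio of Ifi27l2a lay between 2.30 and 8.44 and that of Ifitm3 between 2.63 and 6.56, at 2 or more in all 10. In 5 groups by depth they lay between 3.302 and 5.70 and between 3.52 and 4.83. Bst2 was above 1 in each of the 15 groups, at 1.13 to 1.58 by mitochondrial share and 1.16 to 1.33 by depth. Ifi27 lay between 0.904 and 1.21 by mitochondrial share, above 1 in 8 of 10 groups, and between 1.01 and 1.14 by depth. The levels themselves differed with mitochondrial share. In plasma-positive cells of the lowest and highest group Ifi27l2a was at 58.7 and 193.5 CPM, Ifitm3 at 45.9 and 114.5, and Ifi27 at 107 and 90.4. In plasma-negative cells Ifi27l2a was at 13.6 and 29.1 CPM, and Ifitm3 at 13.4 and 18.8 with overlapping intervals. The reason was not tested.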

How the data were processed

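The authors deposited raw UMI counts per gene and cell for each of the 2 libraries. The kit was Chromium 3′ v3.1, per the labels' protocols. Per the file headers the software was Cell Ranger 6.1.2, whereas the submitters' processing notes name Cell Ranger 3.0.1. The genome build, the annotation and the handling of multimapped reads are not given in the sources used here. The 5 genes and all lists were chosen with earlier results of these data known. Cell barcodes were not used here, so barcodes common to the libraries were not counted.

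Cells needed 500 UMIs, 300 genes and no more than 10% mitochondrial UMIs. This left out 1 plasma-negative cell for genes, and 17 plasma-negative and 28 plasma-positive cells for mitochondrial UMIs. Scrublet (scanpy 1.11.5) called 0 doublets at its automatic threshold, and these calls were not used. All cells stayed in, and removing the highest scores at 0.8% per 1000 cells was an alternative. Counts were summed per library without a pseudocount. Sums carry exact Poisson, shares exact binomial (Clopper-Pearson) and ratios exact conditional binomial intervals (scipy 1.17.1, numpy 2.4.6), and no test was run. Ranges and co-detection used cells thinned to 1000 UMIs. TMM factors came from edgeR 4.0.16. Genes named beside the 5 were their families, the 5 most correlated genes of each, and the 3 highest and 2 lowest ratios of each list at 10 CPM or more. One gene that this rule names is not reported here. Apoe and Ccl12 were named as genes that set ranges. The ratios and correlations were tested on simulated data. Intervals and limits cover counting error only. Those of levels and ratios are too narrow for genes whose UMIs are not scattered at random over cells.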

Additional observations from a re-analysis of the deposited data

How the results depend on the processing

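All alternatives were planned. Of 164 recomputed values 129 stayed within the counting interval of the reported value (counts of genes within 1.5 times), 35 moved further and 0 reversed. The log2 ratios of Ifi27l2a, Ifitm3, Ifitm2 and Ifi27 stayed within their intervals under each cell filter, scaling, weighting and thinning. TMM scaling adds 0.04 to every log2 ratio. That of Bst2 moved to 0.27 with cells thinned to 2000 UMIs. The number of genes at 2-fold or more was 2 under each alternative except without a minimum CPM, where Ifitm2 made it 3.

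Shares of cells depend on depth by construction. At 2000 UMIs the plasma-negative and plasma-positive shares were 2.68% and 8.49% for Ifi27l2a, 1.85% and 5.25% for Ifitm3, 0.352% and 0.527% for Ifitm2, 29.7% and 31.5% for Bst2, and 15.3% and 16.1% for Ifi27. Without thinning they were 3.72% and 11.1%, 2.78% and 7.60%, 0.467% and 1.03%, 40.8% and 47.7%, and 23.2% and 27.1%. Among cells with Ifi27l2a at 2000 UMIs, Bst2 was held by 44.8% and 52.9%, Ifi27 by 25.3% and 18.8%, and Ifitm3 by 29.0% of plasma-positive cells. Without thinning, Ifitm3 was held by 19.1% and 34.3%, Bst2 by 61.9% and 70.6%, Ifi27 by 36.2% and 35.5%, and Ifitm2 by 3.66% of plasma-positive cells. The single plasma-negative cell with Ifi27l2a and Ifitm2 rested on the draw, with 0% at 2000 UMIs and 0% with another seed. The share of plasma-negative cells with Ifi27l2a that held Ifi27 was 11.4% with another seed, within its interval.

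No paired analysis was possible because there was a single library in each group and no test was run. There was no replicate to leave out. Ifitm2 rests on few UMIs, and ranges with few plasma-negative cells give wide intervals.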
